A study of Mus musculus with 26 samples.

Results

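The transcripts of the mitochondrial genome were followed through bulk RNA sequencing of mouse mesenteric arteries, the resistance vessels that supply the gut. Members were taken as every row of the deposited count table whose symbol in the authors' normalized table starts with mt-, which gave 34 of the 57010 genes in the count table. They are 13 protein genes, 2 ribosomal RNA (rRNA) genes and 19 transfer RNA (tRNA) genes. The annotation holds 37 genes on the mitochondrial chromosome (chrM). The remaining 3 are tRNA genes that have no row in the normalized table: mt-Tf with 0 counts over the 26 libraries, mt-Tv with 21 and mt-Tg with 20.

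The libraries came from male mice aged 8 weeks and formed 8 groups. Global Panx1 knockouts (labelled Panx1 KO, 3 libraries) were set against wild types (WT, 3). Pannexin 1, the product of Panx1, forms channels in the plasma membrane. The other lines carry a changed residue in it, labelled Y198F+/+ (3 libraries), S205A+/+ (4) and Y308F+/+ (3), and their controls are labelled Y198F-/- (3), S205A-/- (4) and Y308F-/- (3). The controls were littermates or wild types, and the design text gives 3 vascular trees per genotype, while the S205A groups hold 4 libraries each. Nothing else says that libraries of a group came from separate animals, so p-values measure the spread between these libraries, which may be partly technical.

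Mitochondria keep a small circular genome that is read almost completely along both strands into long precursor RNAs. Enzymes cut the precursors at the tRNAs that lie between the other genes, a scheme known as tRNA punctuation, and the messenger RNAs then receive short poly(A) tails. The protein genes encode core subunits of respiratory complexes I, III and IV and of the ATP synthase, complex V, which are assembled with many subunits encoded in the nucleus. In the arterial wall these complexes supply ATP and are a source of reactive oxygen species that affect vessel tone.

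Total counts ran from 14895969 to 23617902 per library. In 9 libraries the library name carries a number that begins with 22. They are called the 22 series here and comprise Y198F 1 to 3, S205A controls 1 to 3 and S205A 2 to 4. What this number stands for is not given in the sources used here. The other 17 libraries include every Y198F control, so series and mutation cannot be told apart in the labelled Y198F comparison. Panx1 stood at 0.599 to 1.459 CPM (counts scaled to a common library total) in the knockouts and at 3.09 to 4.79 CPM in the wild types, while the lowest S205A control, at 0.794 CPM, lay inside the knockout range. The smooth muscle markers Acta2, Myh11, Tagln, Cnn1, Des and Smtn were detected in every group, with summed levels from 18842 to 39728 CPM per library. Ucp1, the defining gene of brown fat, was at 0 in all but 3 libraries and reached at most 0.103 CPM.

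The 34 members took between 3.79% and 7.41% of all counts in a library. The share was 4.31%, 5.15% and 7.41% in the wild types and 6.03%, 6.36% and 6.53% in the knockouts. It was 5.01%, 6.71% and 5.30% in the Y198F controls and 5.23%, 5.59% and 6.87% in the Y198F mutants. It was 7.29%, 5.85%, 5.49% and 6.61% in the S205A controls and 5.24%, 4.96%, 4.77% and 4.21% in the S205A mutants. The S205A pair was the only labelled pair whose groups did not overlap. In the Y308F line it was 3.79%, 6.65% and 5.36% in the controls and 4.54%, 5.58% and 5.34% in the mutants. The share did not separate the 2 sets of libraries, with a mean of 5.58% ± 0.981 inside the 22 series (SD, n = 9) against 5.64% ± 0.974 for the rest (SD, n = 17). In bulk tissue, a lower share from fewer cells of a type rich in mitochondria cannot be told apart from less mitochondrial RNA per cell.

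**Figure D1:**
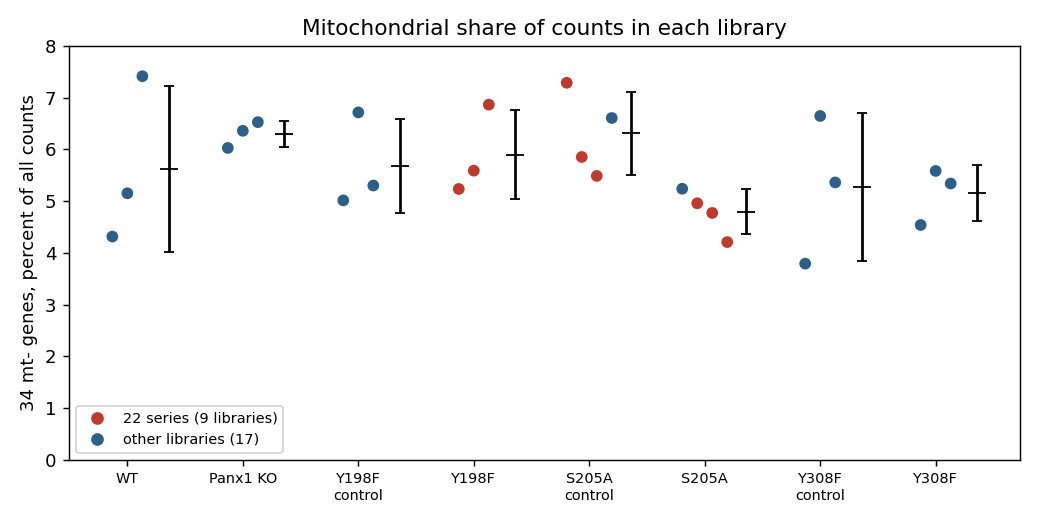
Share of all counts, in percent, taken by the 34 mt- genes in each of the 26 libraries, by group. Points are libraries, red for the 22 series and blue for the others; the black dash and bar are the group mean ± SD. The 4 S205A libraries, from 4.21% to 5.24%, all lie below the 4 S205A controls, from 5.49% to 7.29%.

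Protein genes accounted for nearly all of it. They made up 5.53% ± 0.945 (SD, n = 26) of counts, and the rRNA genes held 0.0492% to 0.116% of counts per library. Within the counts of the 13 protein genes, the complex IV genes mt-Co1, mt-Co2 and mt-Co3, which encode the catalytic core of cytochrome c oxidase, held 46.2% ± 0.583 in the 22 series (SD, n = 9) and 47.1% ± 1.41 in the other libraries (SD, n = 17). The 7 complex I genes, subunits of NADH dehydrogenase, held 32.4% ± 0.595 and 32.2% ± 1.24 in the same sets. Complex III is represented by mt-Cytb alone, the cytochrome b that passes electrons from ubiquinol, with 10.5% ± 0.259 and 10.4% ± 0.247. The complex V genes mt-Atp6 and mt-Atp8, subunits of the proton channel of ATP synthase, held 10.9% ± 0.190 and 10.2% ± 0.312. For most genes these parts moved far less between libraries than the total did. The standard deviation of log2 CPM over the 26 libraries was 0.25 for the sum of the protein genes, while that of each gene's part of the sum was 0.04 for mt-Co1, 0.03 for mt-Cytb and 0.06 for both mt-Nd1 and mt-Nd2. The part held by mt-Atp8 was the least stable of the 13, with a standard deviation of 1.36, followed by mt-Nd4l at 0.35.

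Levels were compared between genes per kilobase of gene length. mt-Co1 ranked first at 9796 ± 1682 CPM per kilobase (SD, n = 26) and exceeded mt-Atp6 in 26 of 26 libraries. mt-Atp6 stood at 8178 ± 1565 CPM per kilobase and mt-Co2 at 8022 ± 1625, and mt-Atp6 was the higher of this pair in 9 of 9 libraries of the 22 series and in 5 of 17 others. mt-Co3 followed at 6679 ± 1114 CPM per kilobase, mt-Cytb at 5062 ± 855 and mt-Nd4 at 4144 ± 832. From mt-Co2 down to mt-Cytb each gene exceeded the next in 26 of 26 libraries. The complex I genes filled the lower ranks. mt-Nd1 stood at 3604 ± 652 CPM per kilobase, mt-Nd4l at 3110 ± 824 and mt-Nd2 at 2857 ± 473. The place of mt-Nd4l went with the set of libraries. It lay below mt-Nd2 in all 9 libraries of the 22 series and above it in all 17 others, and mt-Nd1 exceeded it in 9 of 9 and in 6 of 17. mt-Nd6, which is read from the opposite strand, stood at 1931 ± 447 CPM per kilobase and mt-Nd5 at 1802 ± 322. The protein genes with the lowest means were mt-Nd3 at 1411 ± 295 CPM per kilobase and mt-Atp8 at 1135 ± 744. The lowest means of the 15 were those of the rRNA genes, with 393 ± 75.4 CPM per kilobase for mt-Rnr2, the RNA of the large ribosomal subunit, and 254 ± 73.9 for mt-Rnr1, that of the small subunit. This order of means did not hold in every library: mt-Atp8 lay below mt-Rnr2 in all 9 libraries of the 22 series, at 159 to 315 against 246 to 407 CPM per kilobase, and above it in all 17 others. The labelled molecule is polyA RNA, so these values do not measure total rRNA.

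**Figure D2:**
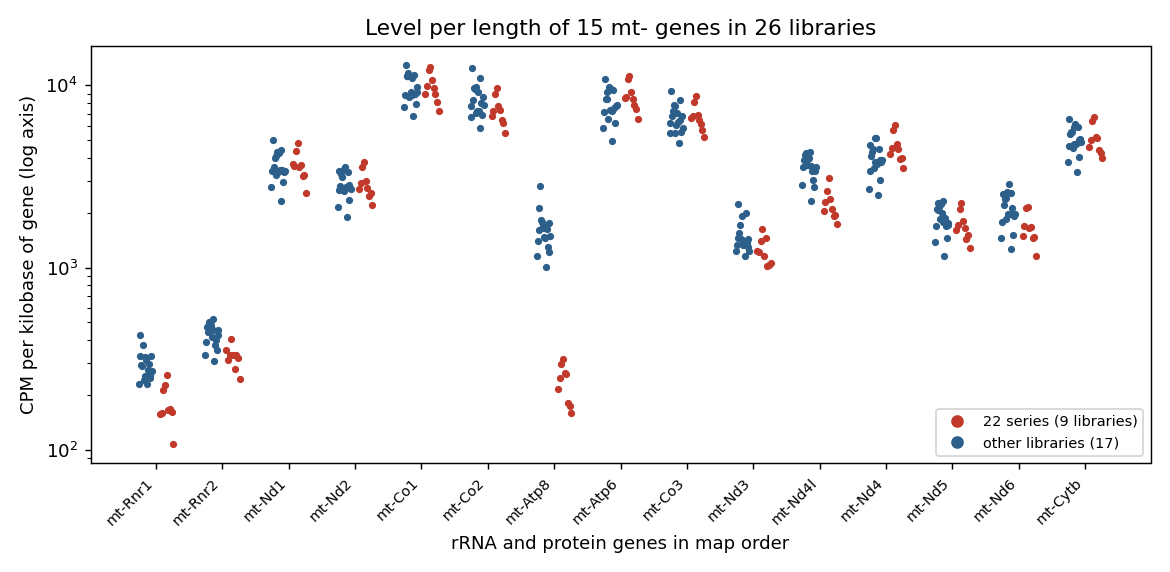
Level per gene length, in CPM per kilobase on a log axis, of the 2 rRNA and 13 protein genes of chrM in map order. Each point is a library, red for the 22 series (9) and blue for the others (17). The 2 sets overlap for most genes, including mt-Co1 and mt-Cytb, but not for mt-Atp8.

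Counts of the tRNA genes were low, and for some they were near the floor of the assay. The labelled molecule is polyA RNA, so these counts do not measure total tRNA either. Of the 19 members, 12 had a mean of at least 10 counts per library. The highest were mt-Tp (proline), with 279 to 1262 counts per library, mt-Te (glutamate), with 135 to 495, mt-Tn (asparagine), with 40 to 286, and mt-Tc (cysteine), with 92 to 202. These 4 lie on the minus strand of chrM. On the plus strand mt-Tl1 (leucine) had 36 to 227 counts per library. The remaining 7 of the 12, mt-Tw, mt-Ty, mt-Ts1, mt-Tk, mt-Th, mt-Ts2 and mt-Tl2, had means between 11.04 and 52.9 counts. The other 7 tRNA members, mt-Ti, mt-Tq, mt-Tm, mt-Ta, mt-Td, mt-Tr and mt-Tt, had means from 2.31 to 8.54 counts and were at 0 in 3 to 10 of the 26 libraries. Whether counting used the strand is not given in the sources used here, so reads of a minus-strand gene and of the plus-strand precursor that runs through it cannot be told apart. The same holds for mt-Nd6, and for mt-Ts1, whose end overlaps mt-Co1 by 3 bases.

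A stretch of the nuclear genome carries an almost identical copy of part of chrM, and it took part in the counts. In GRCm39 the segment chr1:24650616-24655269 aligned with 99.936% identity over 4654 positions to bases 6390 to 11042 of chrM, with 3 differences. Of the differences, 2 are substitutions inside protein genes, A6393T in mt-Co1 and T9461C in mt-Nd3, counted from the first base of chrM with the base of chrM first. The segment meets 8 annotated genes, 7 of them pseudogenes. The pseudogene Atp6-ps covers the 43 bases that mt-Atp8 shares with mt-Atp6, and no gene is annotated over the copy of the other 161 bases of mt-Atp8. T9461C is shown with its surroundings, 31 bases on the plus strand of chrM with the differing base in capitals, because the copy extends to both sides of it.
mt-Nd3 start: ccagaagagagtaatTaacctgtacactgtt
chromosome 1 copy: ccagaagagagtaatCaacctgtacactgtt

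Of the pseudogenes of the copy, Gm28661, Gm28437 and Gm10222 received nearly the same number of counts as the mitochondrial genes they match. Gm28661, the copy of mt-Co2, had 2709568 counts over all libraries and mt-Co2 had 2706086. Per 100 counts of the mitochondrial gene, Gm28661 ranged from 100.03 to 100.4 over the libraries, and Gm28437, the copy of mt-Co3, from 100.02 to 100.4. Gm10222, the copy of mt-Nd4l, ranged from 99.5 to 100.4. The counts of the copy were thus nearly the same numbers as those of the mitochondrial gene in every library, for these 3 pairs. How reads that map to several places were counted is not given in the sources used here. The 7 pseudogenes together took 2.57% ± 0.444 of counts within the 22 series (SD, n = 9) and 2.62% ± 0.471 elsewhere (SD, n = 17), beside the members' own share.

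Of the remaining pairs, Atp6-ps and Gm29216 had ratios that differed between the 2 sets of libraries without overlap, while those of Gm28439 and Gm28438 overlapped. Atp6-ps, the copy of mt-Atp6, stood at 115 to 119 counts per 100 of mt-Atp6 in the 22 series and at 141 to 150 in the others. The 2 ranges did not overlap. On chrM, mt-Atp6 shares 43 bases with mt-Atp8, and Atp6-ps covers the same 43 bases in the copy, where the other 161 bases of mt-Atp8 lie under no annotated gene. The surplus of Atp6-ps over mt-Atp6 was 1010 ± 165 CPM in the 22 series and 2351 ± 437 CPM in the others. Gm29216, which matches 483 of the 1545 bases of mt-Co1, stood at 26.1 to 29.0 per 100 counts of mt-Co1 in the 22 series and at 17.8 to 23.9 in the others. Gm28439, which matches 876 of the 1378 bases of mt-Nd4, stood at 49.4 to 52.8 and at 49.9 to 55.6 per 100 counts of mt-Nd4, and Gm28438, the copy of mt-Nd3, at 97.3 to 103.6 and at 102.4 to 105.2 per 100 counts of mt-Nd3.

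Less similar copies differed far more between the sets. Gm13340, a copy of mt-Co1 on chromosome 2 that lies in a segment 97.4% identical to chrM, had 108 ± 22.7 CPM within the 22 series (SD, n = 9) and 10.8 ± 1.97 CPM elsewhere (SD, n = 17). Gm13341, the copy of mt-Co2 in the same segment, had 62.0 ± 14.1 and 7.51 ± 1.73 CPM. Gm4076 on chromosome 13, in a segment 95.2% identical to chrM that matches mt-Nd5, had 3.34 ± 0.800 and 0.236 ± 0.142 CPM. The ranges of the 2 sets did not overlap for any of these 3. The highest of them in any library, Gm13341, reached 1.49 counts per 100 of mt-Co2.

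**Figure D3:**
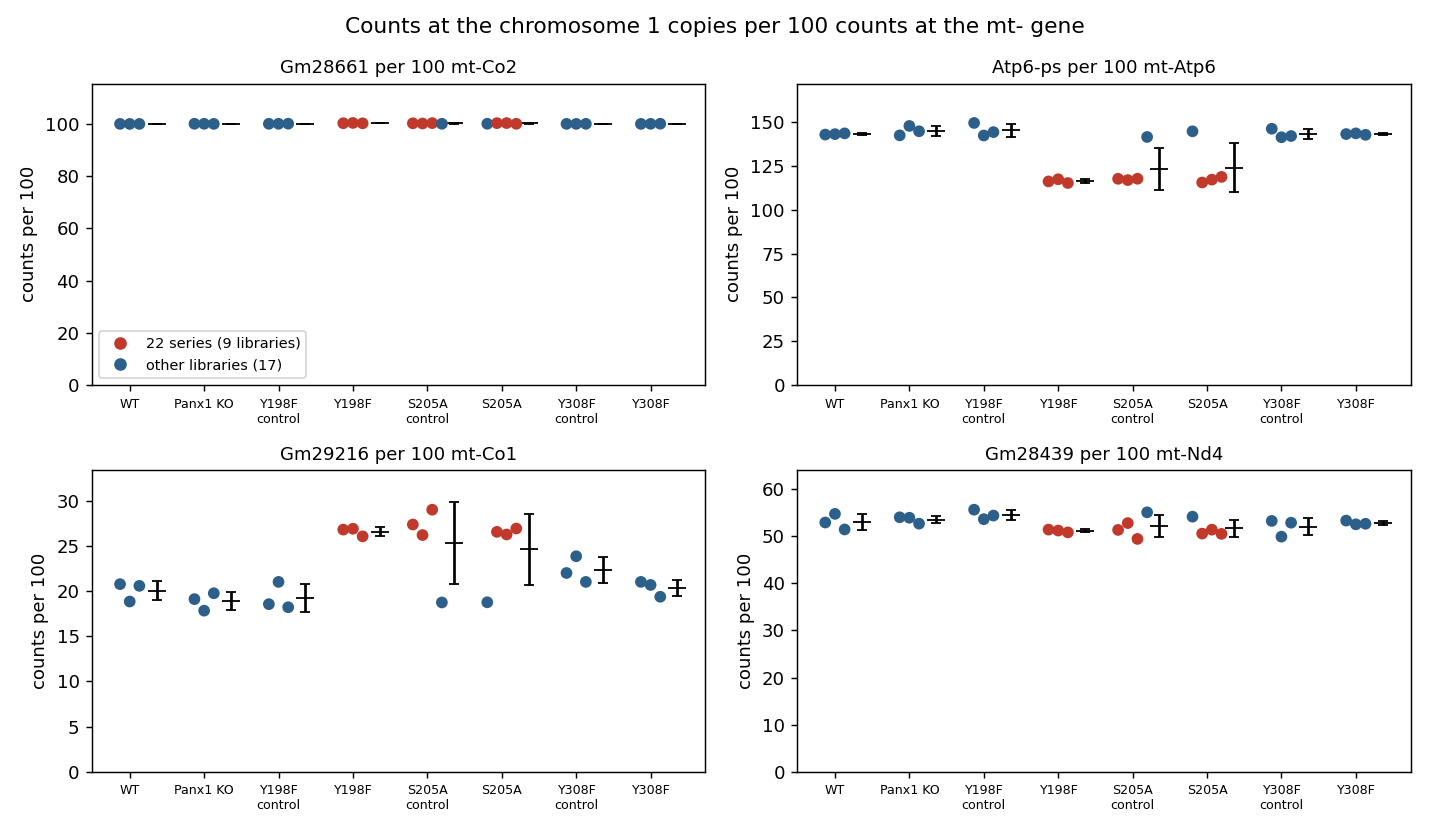
Counts at 4 pseudogenes of the chromosome 1 copy per 100 counts of the matching mt- gene, one point per library, red for the 22 series and blue for the others, with group mean ± SD in black. Gm28661 sits at about 100 in every library, while Atp6-ps runs from 115 to 119 in the 22 series and from 141 to 150 elsewhere.

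The same division of libraries separated a few members. It could be estimated apart from genotype only in the S205A line, where each genotype has 3 libraries in the series and 1 outside, with genotype as a term in edgeR's quasi-likelihood fit. Of 29 members that passed the filter on low counts, 5 were called at an adjusted p under 0.05, 4 lower and 1 higher in the 22 series, against 5.02% called among all 17256 genes tested, 1.16% lower and 3.87% higher. At an unadjusted p under 0.05 there were 9 members, 8 of them lower, where 20.6% of all genes were at that level and 7.71% were lower. The 13 protein genes were all lower, with a median log2 difference of -0.23, and 2 of them passed the test. The median over all genes tested was 0.00.

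Other gene groups were read along the same division. Of the 63 nuclear genes for subunits of the same complexes 46 were on the higher side in the 22 series, with a median of 0.14, and by the edgeR test 6 rose and 3 fell, where 3.87% of all genes were called higher and 1.16% lower. Their sums were 4607 to 5553 CPM in the 6 libraries of the line inside the series and 3965 to 4674 CPM in the 2 outside. Of the 6 smooth muscle markers 5 were on the higher side, with a median of 0.39, 1 called (Tagln) and sums of 22545 to 39728 against 27039 to 28135 CPM. Of the 6 white fat markers 5 were on the lower side, with a median of -0.77, 0 called and sums of 49.97 to 605 against 327 to 750 CPM. Of the 5 brown fat markers tested 4 were on the lower side, with a median of -0.46, 0 called, 1 at an unadjusted p under 0.05, and sums over all 7 of 4.90 to 19.1 against 11.2 and 35.0 CPM, with Ucp1 and Elovl3 at 0. Of the 5 endothelial markers 4 were on the lower side, with a median of -0.13, 0 called and sums of 971 to 8827 against 4042 to 4850 CPM. The sums overlapped between the sets in each of these groups, and the part of these cell types was not tested.

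mt-Atp8 (chrM:7766-7969) encodes a small subunit of ATP synthase and shares its last 43 bases with the start of mt-Atp6 (chrM:7927-8607). In the S205A line mt-Atp8 stood at 64.2, 53.8 and 53.4 CPM in controls 1 to 3 and at 36.8, 35.6 and 32.5 CPM in mutants 2 to 4, all of the 22 series. The 2 libraries outside it, control 4 and mutant 1, stood at 339 and 297 CPM. The series therefore divided the line with a gap, whatever the genotype, and the log2 difference was -2.87 (SE 0.136, edgeR adjusted p = 3.84e-05). Over all 26 libraries the level ran from 32.5 to 64.2 CPM with a median of 50.6 in the 22 series, and from 207 to 569 CPM with a median of 328 in the others. mt-Atp6, which lies on the same precursor, differed by -0.03 (SE 0.189, edgeR adjusted p = 0.963). There were 0.689 to 0.930 counts of mt-Atp8 per 100 of mt-Atp6 in the 22 series and 5.18 to 9.98 in the others.

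mt-Nd4l (chrM:9877-10173), a complex I subunit, likewise shares its end with the next gene, by 7 bases with mt-Nd4 (chrM:10167-11544). It stood at 918, 710, 620, 571, 576 and 518 CPM in the 6 libraries of the S205A line inside the series and at 1277 and 1067 CPM in the 2 outside. The log2 difference was -0.89 (SE 0.173, edgeR adjusted p = 0.0212), while mt-Nd4 differed by -0.01 (SE 0.192, adjusted p = 0.982). Over all 26 libraries the ratio was 10.01 to 10.97 counts of mt-Nd4l per 100 of mt-Nd4 in the 22 series and 16.4 to 22.8 in the others, without overlap. The copy Gm10222, with nearly the same counts, differed by -0.90 (SE 0.174, edgeR adjusted p = 0.0212). Both gene pairs, in which a short gene overlaps a longer one downstream, are shown at their junction, plus strand of chrM in GRCm39, chrM:7907-7989 and chrM:10147-10193, with the bases shared by both genes in capitals.
mt-Atp8/mt-Atp6 junction: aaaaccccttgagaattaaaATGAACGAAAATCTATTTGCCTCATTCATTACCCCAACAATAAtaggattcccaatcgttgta
mt-Nd4l/mt-Nd4 junction: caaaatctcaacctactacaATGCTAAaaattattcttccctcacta

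Reads in the shared bases belong to both genes, and how such reads were counted is not given in the sources used here. With 43 of 204 bases shared, mt-Atp8 has 161 bases of its own, and mt-Nd4l has 290 of 297. Reads were 150 bases long and taken in pairs.

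The tRNA members mt-Tn, mt-Tp and mt-Ts1 also passed the test. mt-Tn stood at 4.12, 3.92, 4.39, 4.90, 4.65 and 2.56 CPM inside the series and at 10.8 and 12.6 CPM outside it, a log2 difference of -1.55 (SE 0.255, edgeR adjusted p = 0.0108). mt-Tp stood at 33.3, 20.9, 23.2, 19.9, 20.3 and 17.9 CPM inside and at 42.3 and 39.1 CPM outside, a difference of -0.90 (SE 0.186, edgeR adjusted p = 0.0272). Both groups of values were apart for each gene. mt-Ts1, a serine tRNA gene, went the other way, with 1.74, 2.37, 1.52, 1.07, 1.26 and 0.896 CPM inside and 0.316 and 0.0493 CPM outside, a difference of 3.08 (SE 0.693, edgeR adjusted p = 0.0382). It rests on few reads, with 0 to 57 counts per library over all 26. In the S205A line it had 14 to 40 counts inside the series and 6 and 1 outside. It thus passed the filter on low counts only through the libraries where it was high, and its call held in 4 of 12 alternatives. Over all 26 libraries mt-Tn stood at 2.56 to 5.83 CPM in the 22 series and 8.34 to 14.5 CPM in the others, without overlap, while mt-Tp, at 17.9 to 34.4 and 24.6 to 64.6 CPM, overlapped. The 3 sequences are given 5′ to 3′ on the minus strand of chrM, as the tRNA genes that passed the test in the S205A line, with the bases that mt-Ts1 shares with mt-Co1 in capitals. They are at chrM:5089-5159, chrM:15356-15422 and chrM:6870-6938.
mt-Tn: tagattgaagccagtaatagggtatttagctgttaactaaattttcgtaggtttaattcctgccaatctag
mt-Tp: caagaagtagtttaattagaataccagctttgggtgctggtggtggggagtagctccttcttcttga
mt-Ts1: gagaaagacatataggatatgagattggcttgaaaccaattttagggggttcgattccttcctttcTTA

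Among members that did not pass, the rRNA genes and mt-Nd6 came closest. mt-Rnr1 differed by -0.64 (SE 0.197, edgeR adjusted p = 0.104), mt-Rnr2 by -0.65 (SE 0.179, adjusted p = 0.0731) and mt-Nd6 by -0.63 (SE 0.166, adjusted p = 0.0645). Over all libraries the rRNA genes held 1.08 to 1.40 counts per 100 of the protein genes in the 22 series and 1.34 to 2.02 in the others, with a small overlap. mt-Nd6 held 1.47 to 1.65 counts per 100 of the 12 plus-strand protein genes in the 22 series and 1.80 to 2.34 in the others, with none. mt-Co1, mt-Co2, mt-Co3, mt-Cytb, mt-Nd1, mt-Nd2, mt-Nd3 and mt-Nd5 differed by -0.35 to -0.08 on the log2 scale and did not pass.

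Leaving out S205A control 4 or S205A mutant 1, the only libraries of the line outside the series, left mt-Atp8 as the only member called, with the remaining outside library taken to vary like the others. Without S205A control 3, or without S205A mutant 2, 3 or 4, 2 members were called in each case, mt-Atp8 and mt-Tn. mt-Atp8 was called in 12 of 12 alternatives, with log2 differences from -3.14 to -2.59.

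**Figure D4:**
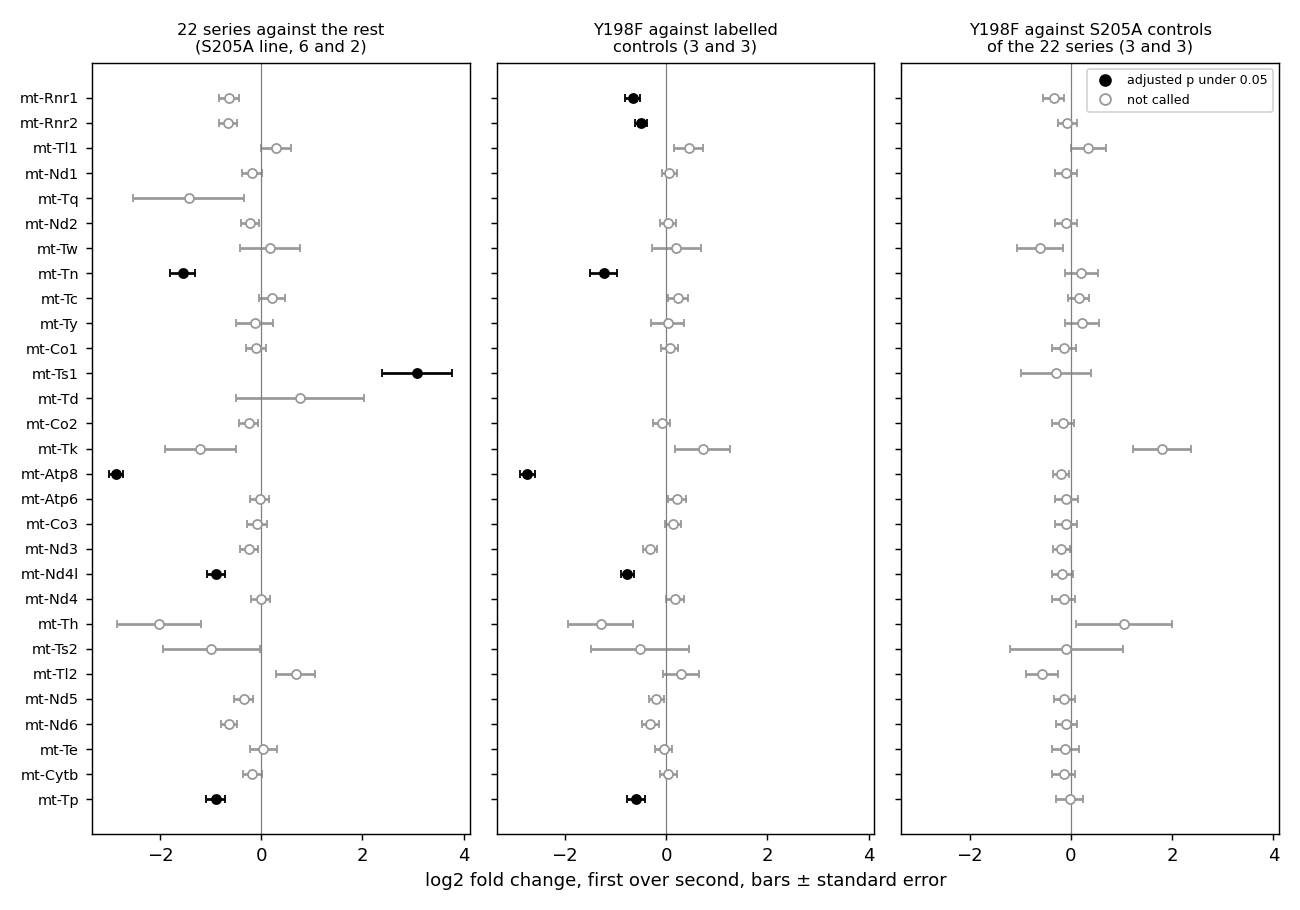
Log2 fold change of each tested member with its standard error, in map order, for the 22 series against the rest in the S205A line (left), Y198F against its labelled controls (middle) and Y198F against S205A controls of the 22 series (right). Filled points passed an adjusted p of 0.05. mt-Atp8 lies at -2.87 and -2.74 on the left and in the middle and at -0.20 on the right.

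The first labelled comparison asked what loss of pannexin 1 does to the artery. No member passed the test between knockouts and wild types. With edgeR 0 of 28 tested members were called and 0 had an unadjusted p under 0.05, and DESeq2 likewise called 0 with 0 at that level. Among all 16193 genes 0.0309% were called, 0.0185% lower and 0.0124% higher. An unadjusted p under 0.05 was reached by 11.2% of genes, and by 5.92% on the lower side. The median log2 difference was 0.09 over the members and 0.01 over all genes tested, and 20 of the 28 members were higher. The members' median was -0.10 without wild type 1 and 0.02 to 0.21 when any other library was left out.

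In the knockouts mt-Co1 stood at 17333, 17289 and 18070 CPM, and in the wild types at 11749, 13680 and 19991 CPM. The wild types spanned the knockouts, and the log2 difference was 0.10 (SE 0.236). mt-Nd5 stood at 3793, 4102 and 3910 CPM against 2519, 3078 and 3833 CPM, with the groups overlapping and the largest difference of the 11 protein genes other than mt-Atp8 and mt-Nd4l, 0.21 (SE 0.189). mt-Atp8 stood at 328, 569 and 374 CPM against 236, 285 and 433 CPM, a difference of 0.30 (SE 0.277). All 3 wild types and all 3 knockouts lie outside the 22 series.

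Of 27 members with a mean of at least 10 counts, 2 had every knockout above every wild type, mt-Nd4l and mt-Tk, where 18.4% of 16113 genes did so, and 0 had every knockout below every wild type, where 3.60% did. mt-Tk, the lysine tRNA gene, stood at 1.20, 2.14 and 1.57 CPM in the knockouts and 0.848, 0.860 and 0.451 CPM in the wild types. These are 9 to 44 counts per library, and the log2 difference was 1.06 (SE 0.481, edgeR adjusted p = 0.457). mt-Nd6 per 100 counts of the plus-strand protein genes was 1.97, 2.02 and 1.99 in the knockouts and 1.81, 1.86 and 1.83 in the wild types. These groups stood apart. A two-sided exact permutation test gave p = 0.1, as low as 3 against 3 libraries can reach, and 0.5 after adjustment over 20 such tests.

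Of 63 nuclear genes for subunits of the same complexes, 60 were lower in the knockouts, with a median log2 difference of -0.29. None was called by edgeR at an adjusted p under 0.05, while 40 had an unadjusted p under 0.05, where 11.2% of all genes did. Their summed level was 4608 ± 156 CPM in the knockouts and 5148 ± 298 CPM in the wild types (SD, n = 3 each). Genes of mitochondrial transcription and DNA maintenance, among them the polymerase gene Polrmt and the packaging factor gene Tfam, showed a median of 0.05 with 0 of 18 called, and those of mitochondrial RNA processing -0.04 with 0 of 25 called. All 6 white fat markers were also lower in the knockouts, with a median of -1.459, 0 called, and summed levels of 178 to 919 CPM against 438 to 2712 CPM. All 6 smooth muscle markers were lower too, with a median of -0.24, 0 called, 1 at an unadjusted p under 0.05, and sums of 21071 to 25973 against 19785 to 31228 CPM. Of the 5 brown fat markers tested 4 were lower, with a median of -0.31 and 0 called. Sums over all 7 brown fat markers were 18.0 to 23.3 against 11.3 to 29.8 CPM. Of the 5 endothelial markers 4 were lower, with a median of -0.05, 0 called and sums of 3202 to 4166 against 2640 to 4144 CPM. The part of these cell types was not tested.

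The Y198F line removes a tyrosine that can be phosphorylated. Against the labelled controls, 6 of 26 tested members were called, all 6 lower in the mutants, where 15% of 16050 genes were called, 5.48% lower and 9.55% higher. At an unadjusted p under 0.05 there were 7 members, all lower, where 29.1% of genes were at that level and 12.6% were lower. All 3 mutants and none of these controls belong to the 22 series. mt-Atp8 stood at 43.8, 50.6 and 60.1 CPM in the mutants and at 363, 347 and 301 CPM in the controls, a log2 difference of -2.74 (SE 0.145, edgeR adjusted p = 2.55e-06). mt-Nd4l stood at 609, 681 and 780 CPM against 1082, 1177 and 1193 CPM, a difference of -0.77 (SE 0.126, adjusted p = 0.00270). Neither gene's groups overlapped. Of 27 members with a mean of at least 10 counts, 7 had every mutant below every control, where 13.6% of genes did so, and 1, mt-Ts1, had every mutant above, where 20.4% did. With 8, 22 and 57 counts in the mutants and 1, 2 and 1 in the controls, mt-Ts1 reached that mean only through the mutants.

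mt-Rnr1 stood at 151, 152 and 204 CPM in the mutants and at 232, 311 and 243 CPM in the controls, a difference of -0.66 (SE 0.145, edgeR adjusted p = 0.0118). mt-Rnr2 stood at 561, 493.4 and 528 CPM against 758, 762 and 661 CPM, a difference of -0.50 (SE 0.117, adjusted p = 0.0163). The tRNA genes mt-Tn, at -1.23 (SE 0.266, adjusted p = 0.0108), and mt-Tp, at -0.59 (SE 0.178, adjusted p = 0.0465), completed the 6. When all 8 groups were fitted together with a term for library series, 0 members were called and 5 of these 6 differences turned positive, between 0.13 and 0.32, with mt-Rnr1 at -0.03. That term came from the S205A line alone, where S205A control 4 and S205A mutant 1 lie outside the series. It could not be estimated within the Y198F line, so this fit does not separate mutation from series there. With all 8 groups in one fit and no such term the 6 differences were nearly the same, but none passed (edgeR adjusted p from 0.0569 to 0.296), and the 1 call was another member. Without Y198F control 1 the calls numbered 3, mt-Atp8, mt-Nd4l and mt-Rnr1. The other 11 protein genes ranged from -0.32 for mt-Nd3 to 0.22 for mt-Atp6, with a median of 0.04 and 0 called.

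Among nuclear genes of the same complexes, 10 of 63 rose and 6 fell by the edgeR test, where 9.55% of all genes were called higher and 5.48% lower. Ndufs7, a complex I subunit gene, rose by 0.85 (SE 0.1003, adjusted p = 0.000420), and Cox6a1, of complex IV, by 0.67 (SE 0.0990, adjusted p = 0.00148). Uqcrb, of complex III, fell by 0.92 on the log2 scale (SE 0.143, adjusted p = 0.00213). The other lists had 2 of 18, 3 of 25 and 1 of 8 called, where 15% of all genes were called. Of the 18 genes of transcription and DNA maintenance, Polrmt, the mitochondrial RNA polymerase, rose by 0.84 (SE 0.155, adjusted p = 0.00493) and Ssbp1, which binds single-stranded DNA, fell by 0.54 (SE 0.158, adjusted p = 0.0395). Of the 25 RNA processing genes, Fastk and Tbrg4 rose, by 0.79 (SE 0.105, adjusted p = 0.000852) and 0.48 (SE 0.131, adjusted p = 0.0310). Slirp, whose product stabilizes mitochondrial messenger RNA, fell by 1.74 on the log2 scale (SE 0.427, adjusted p = 0.0191), at 1.14 against 3.73 CPM. Of the biogenesis regulators Pprc1, a transcriptional coactivator gene, rose by 0.63 (SE 0.157, adjusted p = 0.0207). All 6 white fat markers had positive differences, with a median of 1.07 and 0 called, but their sums of 209 to 2008 CPM in the mutants spanned the 355 to 465 CPM of the controls. Adipoq stood at 15.8, 47.4 and 268 CPM against 34.6, 49.0 and 51.9 CPM, with mutant 3 alone above the controls. Of the 6 smooth muscle markers 5 were on the higher side, with a median of 0.37 and sums of 23689 to 31760 against 24638 to 27752 CPM. Tagln and Smtn rose, by 1.14 and 0.54, 2 of 6 called where 15% of all genes were. In the series contrast Tagln differed by 1.30 (edgeR adjusted p = 0.0130) and Smtn by 0.42 (adjusted p = 0.347). The part of these cell types was not tested. In the series contrast of the S205A line, Polrmt differed by 0.72 (edgeR adjusted p = 0.0246), Slirp by -2.56 (adjusted p = 0.00687), Ndufs7 by 1.01 (adjusted p = 0.0163) and Uqcrb by -0.79 (adjusted p = 0.00222). The other 5 genes of these mitochondrial lists named above did not pass there: the difference was 0.56 for Cox6a1 (edgeR adjusted p = 0.0690), 0.55 for Fastk (0.0762), 0.40 for Pprc1 (0.138), -0.34 for Ssbp1 (0.202) and 0.30 for Tbrg4 (0.325).

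Set against the 3 S205A controls of the 22 series, Y198F showed 0 of 27 members called by edgeR and 1 at an unadjusted p under 0.05, and DESeq2 gave the same numbers. Among all 15879 genes 0% were called, and 3.1% had an unadjusted p under 0.05, 0.97% lower. Of 27 members with a mean of at least 10 counts, 1 had every mutant above every control, where 5.88% of genes did so, and 0 had every mutant below, where 2.74% did. These controls also serve the S205A comparison, so the 2 are not independent, and here the mouse line differs too. mt-Atp8 stood at 43.8, 50.6 and 60.1 CPM in the mutants and at 64.2, 53.8 and 53.4 CPM in these controls. The groups overlapped, and the difference was -0.20 (SE 0.158). For mt-Nd4l it was -0.17 (SE 0.205), for mt-Rnr1 -0.34 (SE 0.204) and for mt-Rnr2 -0.08 (SE 0.185). The member at an unadjusted p under 0.05 was mt-Tk, at 2.09, 1.18 and 2.45 CPM against 0.645, 0.415 and 0.506 CPM, a difference of 1.80 (SE 0.576, edgeR adjusted p = 1.00). The 13 protein genes had a median of -0.14, with 13 of 13 lower and 0 called, against -0.01 over all genes. Over all members the median was -0.10, and 0.07 without S205A control 1. All 6 smooth muscle markers were lower as well, with a median of -0.20 and sums of 23689 to 31760 CPM against 22545 to 39728 CPM. White fat markers had positive differences, 6 of 6 with a median of 1.60, on sums of 209 to 2008 CPM against 141 to 508 CPM, which overlapped. So had the 4 brown fat markers tested, with a median of 0.98, and Ucp1 was at 0. None of these markers was called, and their part was not tested.

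The authors' deposited table for Y198F was found to rest on S205A controls. Its fold changes of 32 members were recomputed from the counts with DESeq2 to within 9.45e-06 on the log2 scale when the 4 S205A controls were the reference, and differed by up to 4.35 when the labelled Y198F controls were. In the authors' deposited table for Y198F, mt-Atp8 has a log2 fold change of -1.39 (adjusted p = 0.703) and mt-Nd4l of -0.42 (adjusted p = 0.750). None of the 4 authors' deposited tables lists a member at an adjusted p under 0.05. The smallest member value in the authors' deposited table for S205A is 0.260, with 13 of 32 members at an unadjusted p under 0.05, where 6.01% of the 19399 genes in the authors' deposited table were at that level.

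The S205A line removes a serine that can be phosphorylated, and here all 13 mitochondrial messenger RNAs were on the lower side without any of them passing the test. With edgeR 0 of 28 tested members were called, as were 0% of all 15709 genes. At an unadjusted p under 0.05 there were 9 members, all lower in the mutants, where 2.87% of all genes were at that level and 0.637% were lower. The 9 became 2 without mutant 3 or mutant 4, 3 without control 4, 5 without control 1 or mutant 2, 11 without control 3, 12 without control 2 and 15 without mutant 1, while the median over the members stayed between -0.51 and -0.32. DESeq2 called 0, with 12 at an unadjusted p under 0.05. All 13 protein genes were lower, with log2 differences from -0.50 to -0.35 and a median of -0.44, against -0.01 over all genes tested. Of 27 members with a mean of at least 10 counts, 7 had every mutant below every control, all protein genes, where 0.419% of 15741 genes did so, and 0 had every mutant above, where 1.51% did. Over the 26 libraries the parts of these 7 in the protein gene counts had SDs of 0.03 to 0.14 in log2. The SD of the summed level was 0.25. They moved largely together, so the 7, and the protein genes among the 9, are not independent results.

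mt-Nd4, a complex I subunit gene, stood at 8364, 6581, 6170 and 7094 CPM in the controls and at 5073, 5455, 5534 and 4866 CPM in the mutants. Every mutant lay below every control, and the difference was -0.47 (SE 0.162, edgeR adjusted p = 1.00, unadjusted p = 0.0151). mt-Nd1 stood at 4609, 3391, 3477 and 4055 CPM in the controls and at 3292, 3036, 3077 and 2454 CPM in the mutants, again without overlap, a difference of -0.43 (SE 0.174). mt-Nd2, mt-Nd5, mt-Nd6, mt-Nd3 and mt-Nd4l differed by -0.50 to -0.35, and in each of these at least 1 mutant reached into the range of the controls.

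mt-Cytb stood at 7630, 5990, 5888 and 6975 CPM in the controls and at 5463, 5078, 4840 and 4542 CPM in the mutants, a difference of -0.45 (SE 0.165). mt-Co1 stood at 19509, 16460, 14949 and 16936 CPM against 13702, 13784, 12586 and 11205 CPM, a difference of -0.44 (SE 0.168). mt-Co2 differed by -0.45 (SE 0.174) and mt-Co3 by -0.37 (SE 0.166). The groups did not overlap for any of these 4 genes. mt-Atp6 stood at 7635, 6234, 5740 and 6472 CPM against 4938, 5340, 5075 and 4477 CPM, also without overlap, a difference of -0.44 (SE 0.1598). mt-Atp8 differed by -0.37 with an SE of 0.916. Within the 6 libraries of the 22 series it stood at 64.2, 53.8 and 53.4 CPM in controls and 36.8, 35.6 and 32.5 CPM in mutants, a difference of -0.75 (SE 0.132, edgeR unadjusted p = 0.000553, adjusted p = 1.00). In that fit 535 genes had an unadjusted p under 0.05. Among them were also mt-Nd3, mt-Nd4l, mt-Nd5, mt-Nd6, mt-Rnr1 and mt-Tl2. The other protein genes, among them mt-Co1, mt-Cytb and mt-Nd4, differed by -0.49 to -0.42, at edgeR unadjusted p from 0.0521 to 0.0892.

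**Figure D5:**
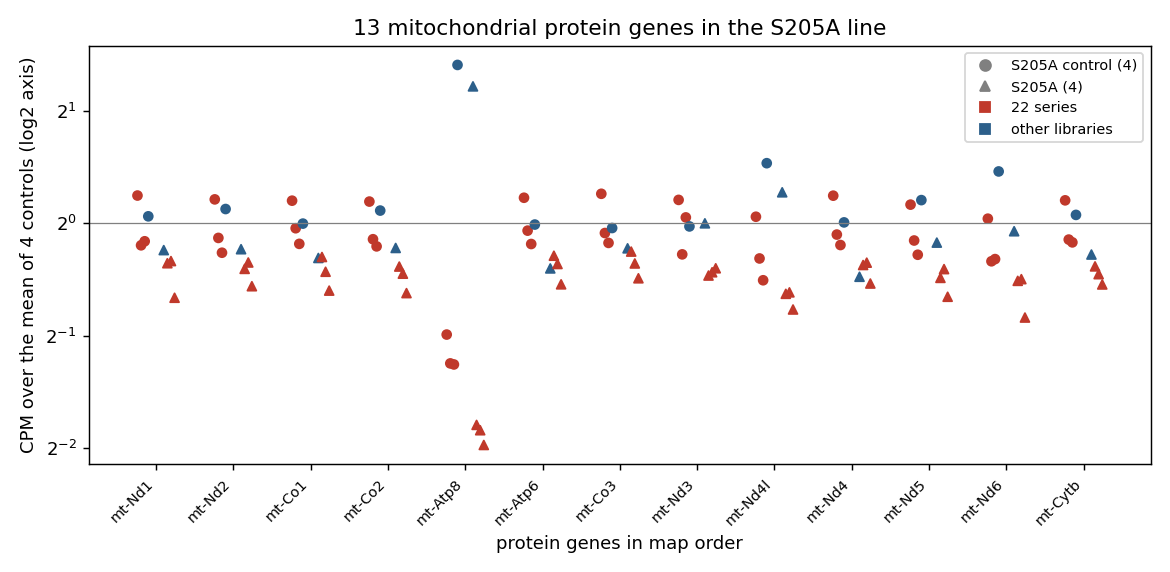
CPM of the 13 mitochondrial protein genes in the S205A line over the mean of the 4 controls, on a log2 axis, with circles for controls and triangles for mutants, red for the 22 series and blue for the others. For mt-Nd1, mt-Co1, mt-Co2, mt-Atp6, mt-Co3, mt-Nd4 and mt-Cytb the 4 mutants lie below the 4 controls, while mt-Atp8 divides by series.

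The rRNA and tRNA genes were less uniform. mt-Rnr1 stood at 217, 244, 158 and 298 CPM in the controls and at 220, 161, 154 and 103 CPM in the mutants, with overlap and a difference of -0.56 (SE 0.255). mt-Rnr2 differed by -0.22 (SE 0.248). Of the 13 tested tRNA members 10 were lower, with a median of -0.20. mt-Tl2, a leucine tRNA gene, was the tRNA member at an unadjusted p under 0.05, at 3.37, 5.04, 5.29 and 2.47 CPM in the controls and 1.48, 1.75, 3.21 and 1.60 CPM in the mutants, a difference of -1.05 (SE 0.372).

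The share of all 34 members was 4.79% ± 0.436 in the mutants and 6.31% ± 0.802 in the controls (SD, n = 4 each), a difference of -1.51 percentage points. Every mutant lay below every control. In a two-sided exact permutation test p was 0.029, as low as 4 against 4 libraries can reach, and 0.5 after adjustment over the 20 tests of shares. Within the 22 series the difference was -1.56 percentage points, 4.65% ± 0.390 against 6.21% ± 0.952 (SD, n = 3 each), without overlap, at an exact p of 0.1, the smallest for 3 against 3. Left without any 1 of the 4 mutants, that test gave an exact p of 0.057. The rRNA genes held 1.46 ± 0.274 counts per 100 of the protein genes in the mutants and 1.34 ± 0.275 in the controls, with overlapping groups and an exact permutation p of 0.543.

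The nuclear genes for the same complexes had a median of -0.04 with 46 of 63 lower, 0 called and 0 at an unadjusted p under 0.05. Their summed level was 4862 ± 256 CPM in the mutants and 4859 ± 719 CPM in the controls (SD, n = 4 each). The genes of mitochondrial transcription and DNA maintenance had a median of 0.05, those of RNA processing -0.04 and the biogenesis regulators -0.14, with 0 called in each. Markers of other cells were read beside these values. Summed smooth muscle markers stood at 27448 to 33923 CPM in the mutants and 22545 to 39728 CPM in the controls, and endothelial markers at 3783 to 5154 and 971 to 8827 CPM. All 6 white fat markers were lower in the mutants, with a median of -0.51, 0 called, and sums of 49.97 to 605 against 141 to 750 CPM. Skeletal and heart muscle markers, from tissue rich in mitochondria, summed to 24.5 to 94.3 CPM in the mutants and 26.3 to 35.4 CPM in the controls, with Myh4 at 0. Of the 7 brown fat markers, Ucp1 and Elovl3 were at 0 in both groups, and 2 of the 3 tested were higher in the mutants, with a median of 0.72, 0 called, and sums of 8.77 to 35.0 against 4.90 to 11.2 CPM. The part of these cell types in the lower mitochondrial level was not tested. Total counts were 14895969 to 20274590 in the mutants and 16855061 to 20152220 in the controls.

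The Y308F line removes another tyrosine. With edgeR 0 of 26 tested members were called and 0 had an unadjusted p under 0.05, and DESeq2 gave the same 2 values, while 0% of 16037 genes were called and 4.4% had an unadjusted p under 0.05, 1.93% lower. mt-Co1 stood at 12261, 15139 and 14213 CPM in the mutants and at 10453, 17605 and 13841 CPM in the controls, which spanned the mutants. The difference was -0.04 (SE 0.243). mt-Cytb differed by -0.07 (SE 0.236), mt-Atp6 by -0.04 (SE 0.246), mt-Atp8 by 0.15 (SE 0.192) and mt-Rnr2 by 0.15 (SE 0.161). The median was -0.05 over the members and -0.03 over all genes, and over the members it was 0.11 without control 2 and 0.02 without mutant 1. No member of 26 had groups apart in either direction, where 3.70% of 16110 genes had every mutant below and 7.29% every mutant above the controls.

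As in the knockout comparison, most nuclear subunit genes were on the lower side here, 59 of 63 with a median of -0.22. None was called by edgeR, and 8 had an unadjusted p under 0.05, where 4.4% of all genes did. Of the 6 white fat markers 5 were lower, with a median of -0.55 and sums of 305 to 865 against 137 to 1653 CPM. Of the 5 brown fat markers tested 4 were lower, with a median of -0.38 and sums over all 7 of 11.01 to 14.0 against 11.3 to 19.4 CPM. Of the 6 smooth muscle markers 5 were lower, with a median of -0.12 and sums of 21781 to 27302 against 18842 to 30702 CPM. None of these markers was called, and their part was not tested. The shares of the members were 5.15% ± 0.547 in the mutants and 5.27% ± 1.43 in the controls (SD, n = 3 each), an exact permutation p of 0.9.

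Differences between the effects of the mutations were tested as an interaction in edgeR for the 3 comparisons not confounded with the series. Between the knockout and S205A 0 of 30 members were called, where 0.00562% of 17799 genes were, and 3 had an unadjusted p under 0.05, where 4.16% of genes did. The 3 became 0 without wild type 1, 10 without wild type 3, 5 without S205A control 3 or S205A mutant 1, and 1 without knockout 2 or S205A control 4. Between the knockout and Y308F 0 of 28 members were called and 0 had an unadjusted p under 0.05, where 0.0116% and 3.1% of genes did. Between S205A and Y308F 0 of 29 were called and 1 had an unadjusted p under 0.05, where 0% and 3.49% of genes did, and leaving out a library gave 0 to 3. The lower mitochondrial messenger RNA in S205A was therefore not shown to differ from the effect in either other line.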

How the data were processed

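Poly(A) RNA of mesenteric arteries was sequenced in read pairs of 150 bases. Per the series' design text and the labels, the authors mapped reads to GRCm39 with STAR 2.7.9a and counted them with featureCounts of Rsubread 2.20.0. The annotation release, the strand setting and the treatment of reads with several positions or genes are not given in the sources used here. The deposited count table holds whole-number counts. The deposited normalized table holds a signal that was, tested on its values, the counts divided by a factor per library. It keeps the 21031 genes with over 50 counts in all. The tables of comparisons deposited by the authors come from DESeq2 1.46.0, per the submitters' processing notes, and give a base mean signal, log2 fold changes with standard errors, a test score and p-values. Each kind of value in them is the authors' own.

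From the counts, CPM were computed over all counts of a library. Comparisons used edgeR 4.0.16 (TMM, filterByExpr, robust quasi-likelihood test) in R 4.3.3 on all genes that passed the filter, with Benjamini-Hochberg adjustment. Each SE of an edgeR difference is derived from the test, as the absolute log2 difference over the square root of the F statistic. For shares, two-sided exact permutation tests were used. Groups follow the labels. Differences of the 22 series used genotype as a term in the S205A line. TMM factors lay between 0.905 and 1.07. No 2 libraries of a group matched within sampling noise: the lowest chi-square per degree of freedom of 30 pairs was 15. Copies of chrM were found with BLAST 2.17.0 in GRCm39, keeping alignments of at least 500 bases at 95% identity, and gene positions come from GENCODE on GRCm39. Sequences come from that genome. The fits were tested on simulated data.

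Same-numbered libraries did not deviate together in every pair (correlations from -0.34 to 0.27), so no block was used. Alternatives were DESeq2 1.42.0, DESeq2 size factors, library sizes without the members, no filter, one fit of all groups, the library series as a term, the protein genes alone or protein-coding counts as the base of a share, a replicate block and each library left out. Adding the chromosome 1 copies to the share, limiting the S205A share to the 22 series and the series term within the S205A line were chosen after seeing the data. The members and the gene lists were chosen with earlier results of these data known. Every protein and rRNA gene is named with values, and tRNA genes with a mean of at least 10 counts or past the threshold are named. From the lists, up to 5 genes past the threshold per list and comparison were named by adjusted p.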

Additional observations from a re-analysis of the deposited data

Results flagged for a closer look

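In the 2 groups of 4 libraries, the highest or lowest library was set against the spread of its group for 62 values, and 9 stood apart. Chance alone flags about 1 in 20 such groups. Of the S205A controls, library 4 stood apart for mt-Atp8 at 339 CPM (the others at 53.4 to 64.2), for mt-Tn at 10.8 CPM (the others at 3.92 to 4.39) and for mt-Nd6 at 2.34 counts per 100 of the plus-strand protein genes (the others at 1.501 to 1.62). Of the S205A mutants, library 1 stood apart for mt-Atp8 at 297 CPM (the others at 32.5 to 36.8), mt-Nd4l at 1067 CPM (518 to 576), mt-Nd3 at 488 CPM (354 to 370) and mt-Tp at 39.1 CPM (17.9 to 20.3). Control 4 and mutant 1 are the 2 libraries of the line outside the 22 series, and 6 of these 7 values go with that division, with both libraries above the rest of the line. For mt-Nd3 they do not: control 4, at 479 CPM, lay within the other controls at 403 to 564 CPM, and the series contrast was -0.24 (edgeR adjusted p = 0.493). The other 2 are tRNA genes with few reads: mt-Tk at 0.192 CPM in S205A mutant 4 (the others at 1.01 to 1.04) and mt-Tl2 at 3.21 CPM in S205A mutant 3 (the others at 1.48 to 1.75).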

How the results depend on the processing

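The numbers of members called in the knockout, S205A, Y308F and matched Y198F comparisons, and in the 3 interactions, stayed at 0 under each alternative run. In the labelled Y198F comparison the 6 calls became 1 with all 8 groups in one fit and 0 with the library series as a term, and 3 to 6 when a library was left out. With that series term, which came from the S205A line alone, the log2 differences reversed to 0.16 for mt-Rnr2, 0.32 for mt-Tn, 0.13 for mt-Atp8, 0.13 for mt-Nd4l and 0.30 for mt-Tp. The 5 calls of the series contrast became 1 to 7 when a library was left out. With a replicate block the labelled Y198F comparison had 7 calls, and the block changed no other count. The share difference in S205A was -1.56 percentage points within the 22 series (exact p = 0.1) and -1.79 to -1.19 when a library was left out. It ran from -0.265 to 0.738 for Y198F against labelled controls (-0.112 without control 1), from -0.798 to 0.226 against S205A controls (0.0177 without mutant 1) and from -0.850 to 0.578 for Y308F (0.196 without mutant 1). Another scaling moved the median of all genes by less than 0.1 in each comparison. The cause of these changes was not tested.

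With 3 or 4 libraries a group, exact permutation tests cannot go below 0.1 or 0.029. tRNA genes with a few reads per library carry wide errors, and counting error is only part of them. Reads shared with nuclear copies or overlapping genes limit what the counts of mt-Atp8, mt-Atp6, mt-Nd4l and the genes matched on chromosome 1 can show. The library series and the Y198F mutation cannot be told apart in the labelled comparison.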
